A study of Mus musculus with 64 samples.

Results

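The 4 genes described here, Slc22a27, Hao2, Abcd2 and A1bg, had high normalized mRNA signal in the livers of wild type (WT) female mice, were near 0 or low in WT males, and stood higher in humanized males. They were selected on measured values of these same livers, namely the WT female level and the difference between humanized and WT males, which are therefore given as description, with no test. They are 4 of 48440 gene rows in the liver mRNA table and 4 of the 15180 genes with a mean signal of at least 10. All 4 passed that filter, to which the female libraries contributed most of the signal.

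The libraries came from 129S6/SvEvTac mice, either WT, which carry the mouse As3mt gene, or humanized, which express the human ortholog of AS3MT, the enzyme that methylates inorganic arsenic. Every group, the WT groups included, drank water with 400 ppb inorganic arsenic over 4 weeks, so no unexposed animal is among the groups. The labels used here give no age, do not say whether RNA of several animals was pooled, and number the libraries of a group without saying that each is a separate animal. The p-values therefore measure the spread between these libraries. Liver mRNA was measured in 3 libraries each of WT females, humanized females, WT males and humanized males, and adipose mRNA in 11 libraries of the same 4 groups.

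The signal of As3mt separated the genotypes as labelled. It ran from 2624 to 6111 in the 6 WT liver libraries and from 0 to 5.98 in the 6 humanized ones, and the neighbouring Borcs7 ran from 620.2 to 837 and from 8.54 to 15.1. The normalized signal, which the authors had scaled between libraries, summed to 77307210 to 95381805 per liver library. The hepatocyte marker genes, Alb and Apoa1 among them, summed to 6507578 to 12092692 in the 12 liver libraries.

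Many genes of the mouse liver are expressed at different levels in males and females. The difference depends largely on growth hormone, which males release in pulses and females more continuously, and which acts on hepatocytes through the transcription factor STAT5 together with regulators such as BCL6 and CUX2. Slc22a27 belongs to a rodent group of organic ion carriers of the plasma membrane. Hao2 and Abcd2 encode peroxisomal proteins, an oxidase of 2-hydroxy acids and a transporter of very long chain fatty acyl-CoA. A1bg encodes a secreted plasma glycoprotein of the immunoglobulin superfamily.

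Because the 4 genes stood in the same order of groups, the 250 bases before the annotated start of each gene are shown where the RefSeq table (GRCm38.p6) had one, which was the case for 3 of them. Capitals mark matches, on either strand, to letters of factors that act on liver genes. These were TTCNNNGAA for STAT5, ATCAAT or ATCGAT for Onecut and Cux factors, TGTTTAC or TATTTAC for FOXA, GTTAAT for HNF1 and CAAAGT for HNF4. No match overlapped another.
Slc22a27: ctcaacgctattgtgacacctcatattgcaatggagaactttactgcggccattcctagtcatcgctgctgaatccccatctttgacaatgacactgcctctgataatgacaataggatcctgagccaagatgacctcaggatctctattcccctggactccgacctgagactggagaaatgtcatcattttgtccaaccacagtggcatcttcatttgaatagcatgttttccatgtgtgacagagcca
Hao2: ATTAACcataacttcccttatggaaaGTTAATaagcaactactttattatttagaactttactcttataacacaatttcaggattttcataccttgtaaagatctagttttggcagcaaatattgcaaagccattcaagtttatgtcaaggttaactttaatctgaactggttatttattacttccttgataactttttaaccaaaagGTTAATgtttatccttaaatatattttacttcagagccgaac
A1bg: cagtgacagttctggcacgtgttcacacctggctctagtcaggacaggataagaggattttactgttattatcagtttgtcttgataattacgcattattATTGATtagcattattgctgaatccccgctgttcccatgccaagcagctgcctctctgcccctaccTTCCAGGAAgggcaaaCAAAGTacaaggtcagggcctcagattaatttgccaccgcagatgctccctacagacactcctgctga
The windows lie on the minus strand at chr19:7966028-7966277 for Slc22a27, chr3:98893231-98893480 for Hao2 and chr15:60921271-60921520 for A1bg, a build other than the mm9 that the submitters' processing notes name. In the Hao2 window, GTTAAT or its complement was found at positions -250, -224 and -42 from the gene start. A1bg held the STAT5 letters at -84 (TTCCAGGAA), the Onecut and Cux letters at -150 and the HNF4 letters at -68. The Slc22a27 window held none of these letters. Of all 32851 windows of this length in the table, 7.02% held the STAT5 letters, 7.40% those of Onecut and Cux, 5.76% those of FOXA, 6.43% those of HNF1 and 12.6% those of HNF4. A match is a description of the letters only.

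Slc22a27 (ENSMUSG00000067656) was high in every female liver and present in all humanized males. WT females had a signal of 2307, 3186 and 2895 in replicates 1 to 3, and humanized females 3151, 2366 and 3142. WT males had 2.81, 7.18 and 29.5, and humanized males 602, 199 and 400.0. Each humanized male thus stood above each WT male and below each female. The group means were 2796 ± 448 (SD, n = 3) in WT females, 2886 ± 451 in humanized females, 13.1 ± 14.3 in WT males and 400.3 ± 202 in humanized males. The humanized male mean was 30.5-fold the WT male mean and 14.3% of the WT female mean. Without WT male replicate 3, the highest of its group, the ratio was 80.1-fold, and without WT male replicate 1 it was 21.9-fold. On the log2(signal + 1) scale, with the labelled library preparation in the model, the difference was 5.40 ± 0.61 (SE).

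Hao2 (ENSMUSG00000027870), the peroxisomal oxidase, showed the same order at a lower share of the female level. WT females had a signal of 9506, 6607 and 2673, and humanized females 6334, 4197 and 5775. WT males had 3.94, 3.64 and 20.2, and humanized males 257.7, 76.96 and 157. The ranges of both male groups were separate from each other and from those of the females. Means were 6262 ± 3429.8 in WT females, 5435 ± 1108 in humanized females, 9.27 ± 9.49 in WT males and 164 ± 90.6 in humanized males. The humanized male mean was 17.7-fold the WT male mean, and 2.61% of that of WT females. The ratio was 43.2-fold without WT male replicate 3 and 12.6-fold without humanized male replicate 1, and the log2(signal + 1) difference was 4.18 ± 0.68 (SE).

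Abcd2 (ENSMUSG00000055782), the peroxisomal fatty acyl-CoA transporter, came closest to the female range. Its signal was 5989.8, 6273 and 9472 in WT females and 7698, 5959 and 7428 in humanized females. WT males had 70.7, 154 and 639, and humanized males 4672, 1169 and 1395. Humanized male replicate 1 stood at 4672, under the lowest female library at 5959, and the lowest humanized male was 1.83-fold the highest WT male. Group means were 7245 ± 1934 and 7028 ± 936 in WT and humanized females, 288 ± 307 in WT males and 2412 ± 1960.4 in humanized males. The humanized male mean was 8.38-fold that of WT males and 33.3% of that of WT females. It was 21.5-fold without WT male replicate 3 and 4.46-fold without humanized male replicate 1, and the log2(signal + 1) difference was 3.47 ± 0.72 (SE).

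A1bg (ENSMUSG00000022347), the plasma glycoprotein, had the widest gap between the sexes of the 4. WT females had a signal of 41661, 61094 and 38288, and humanized females 4050.4, 31098 and 47981. WT males had 22.7, 8.49 and 15.4, and humanized males 351, 225 and 138. All humanized males exceeded all WT males, and humanized female replicate 1 lay far under the other 5 females. The mean was 47014 ± 12309.5 in WT females, 27709.6 ± 22160.3 in humanized females, 15.5 ± 7.09 in WT males and 238 ± 107 in humanized males. Humanized males had 15.3-fold the WT male mean but 0.506% of the WT female mean. Leaving out single male libraries gave ratios from 11.7-fold (humanized male replicate 1) to 19.9-fold (WT male replicate 1), and the log2(signal + 1) difference was 3.80 ± 0.80 (SE).

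**Figure D1:**
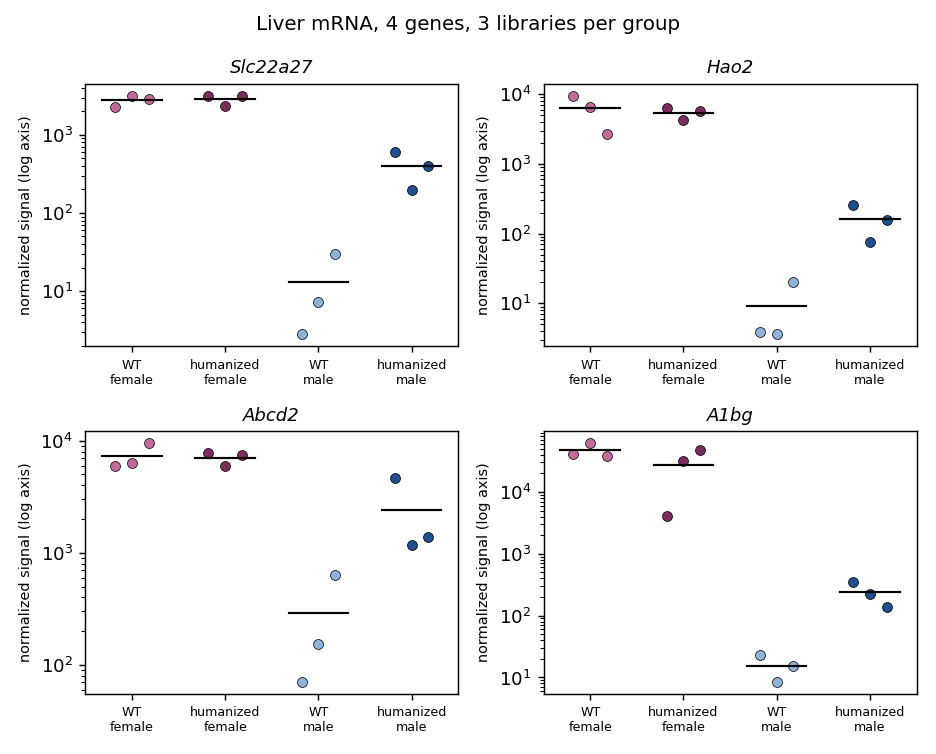
Normalized liver mRNA signal (log axis) of the 4 genes, with 1 point per library, 3 per group, and a line at the group's mean. Each humanized male point lies above every WT male point and below every female point in all 4 panels, and humanized female replicate 1 is low for A1bg, at 4050.4.

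In the fit across all genes, 2 of 15180 genes, 0.0132%, were called higher in humanized than in WT males at an adjusted p under 0.05, and 1 of the 4 genes, Slc22a27, was among them. Since this contrast chose the genes, nothing is read from that count. Humanized males stood above WT males without overlap for 5.34% of genes. WT males below humanized males and humanized males below WT females, again without overlap, was the order of 119 genes, 0.784%, and of all 4 genes here. Ranked among those 119 by the log2 ratio of the male group means (signal + 1), Slc22a27 was number 3, Hao2 number 4, A1bg number 5 and Abcd2 number 8. Cyp3a44, Slc22a26, Slc22a29 and Eci3 held the other places down to number 8. The order and the ranks rest on the values that chose the 4 genes, so nothing is read from their places.

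The distance travelled toward the female level differed among the 4 genes. On the log2(signal + 1) scale the humanized male mean covered 64.5% of the gap between WT males and WT females for Abcd2, 64.0% for Slc22a27, 44.7% for Hao2 and 33.4% for A1bg. These shares are descriptions over 3 libraries per group. Humanized male replicate 1 was the highest of its group for all 4 genes, which was so for 31.3% of all 15180 genes. WT male replicate 3 was the highest WT male for Slc22a27, Hao2 and Abcd2, and WT male replicate 1 for A1bg.

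Library preparation was not even across the male groups. Per the labels' protocols, WT male replicate 1 and humanized male replicates 1 and 2 were made after ribosomal depletion, and the other males after polyA enrichment. Among the ribosomal depletion libraries, the humanized mean was 143-fold the single WT library for Slc22a27, 42.5-fold for Hao2, 41.3-fold for Abcd2 and 12.7-fold for A1bg. Among the polyA libraries, the single humanized library was 21.8-fold, 13.1-fold, 3.52-fold and 11.5-fold the WT mean in the same order. All 4 genes were higher in humanized males within either preparation, with 1 library in an arm each time and no test. Since every humanized male exceeded every WT male for the chosen genes, that direction was fixed in advance and nothing is read from it. Of 7 measured RNAs without a polyA tail, 4 were higher after ribosomal depletion than after polyA enrichment (median 0.19, beside 0.01 for all genes). In the liver fit, the preparation term called 0 of 15180 genes, and 659 had an unadjusted p under 0.05. Among the same RNAs without a polyA tail, 6 were lower in humanized males (median -0.51), none was called and 2 had an unadjusted p under 0.05. The histone genes H1f4, H1f2, H4c9 and H4c8 had the largest of these differences, at -1.19 ± 0.60 (SE), -1.07 ± 0.48, -0.67 ± 0.26 and -0.51 ± 0.34, and the part of the preparation in the results was not tested beyond the values above.

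The genotypes were also compared in females. Limma called 3 of 15180 genes, 0.0198%, between humanized and WT females, and none of the 4 genes was among them. Because the WT female level chose the genes, nothing is read from that count and the differences are given with no test. Humanized minus WT differences on the log2(signal + 1) scale were 0.23 ± 0.61 (SE) for Slc22a27, -0.09 ± 0.68 for Hao2 and 0.10 ± 0.72 for Abcd2. A1bg was at -1.38 ± 0.80, and at -0.35 without humanized female replicate 1. WT and humanized females overlapped for each of the 4 genes, and with 3 libraries per group these errors leave room for sizeable differences in either direction.

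The order of the levels was therefore WT males, humanized males, and then both female groups, which could not be ordered beyond their spread. Humanized males remained below humanized females without overlap for all 4 genes. The genes were chosen on the WT female and male levels, and the share of all genes in that order was not counted, so nothing is read from it. The male minus female difference within the humanized genotype was -2.97 ± 0.60 (SE) for Slc22a27, -5.19 ± 0.66 for Hao2, -1.83 ± 0.70 for Abcd2 and -6.35 ± 0.77 for A1bg on the log2(signal + 1) scale. Within the WT genotype it was -8.14 ± 0.60, -9.45 ± 0.66, -5.20 ± 0.70 and -11.54 ± 0.77 in the same order. Both sets are descriptions, because the male levels of either genotype chose the genes.

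Slc22a27 lies in a run of related Slc22a genes on chromosome 19, and its annotated neighbours were followed next. Slc22a26, the nearest protein-coding gene on one side, had a signal of 14.1, 19.98 and 39.9 in WT males and 2086, 169 and 91.1 in humanized males. Slc22a29, the third annotated gene on the other side, had 11.01, 8.34 and 34.4 in WT males and 131, 203 and 210.1 in humanized males. Both were highest in females, with WT female means of 7420 ± 1568 and 427 ± 44.5, and humanized and WT males did not overlap. In the fit they differed by 3.68 ± 0.95 (SE; limma adjusted p = 0.547) and 3.50 ± 0.49 (limma adjusted p = 0.051), so neither was called. Slc22a28, which lies between Slc22a27 and Slc22a29, had the opposite sex bias, with 709.9, 1269.7 and 1692 in WT males and 1001, 1381 and 1204 in humanized males. Its WT and humanized males overlapped (difference -0.15 ± 0.97, limma adjusted p = 0.982), and no female library exceeded 43.9. These genes are close relatives, so reads may have been split between copies by the authors' counting, and their single values are uncertain to that extent. The pseudogene annotated over Slc22a27 and the 3 others among its nearest neighbours were not analysed here.

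**Figure D2:**
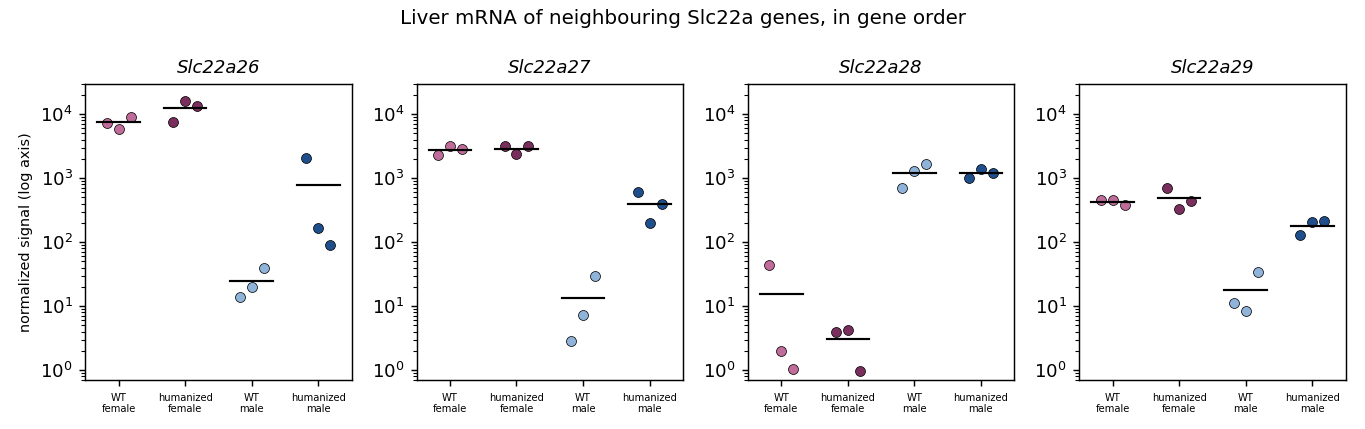
Normalized liver mRNA signal (log axis) of Slc22a27 and its protein-coding neighbours in gene order, with 1 point per library and a line at each group's mean. In Slc22a26, Slc22a27 and Slc22a29 the humanized males lie above the WT males, whereas in Slc22a28 the males of both genotypes lie between 709.9 and 1692 and the females at or below 43.9.

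The wider Slc22 family of organic cation, anion and carnitine carriers differed in both directions. Of 24 listed members other than Slc22a27, 14 passed the filter, 6 were higher in humanized males and 8 lower, with a median of -0.05 on the log2 scale beside -0.01 for all genes. None was called, and 4 had an unadjusted p under 0.05, which 1083 of all 15180 genes, 7.13%, had in males. Besides Slc22a26 and Slc22a29, the largest differences were those of Slc22a21, a carnitine carrier, at -0.98 ± 0.37 (SE; limma adjusted p = 0.668) and Slc22a7, an organic anion carrier, at -0.68 ± 0.28 (0.677).

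The neighbours of the other 3 genes had low signal or did not separate the male groups. Hsd3b1, a steroid dehydrogenase next to Hao2, stood at 0.751 ± 0.661 in WT males and 1.31 ± 1.48 in humanized males, against 63.9 ± 78.2 in WT females. Near Abcd2, the glucose transporter family gene Slc2a13 was at 11.9 ± 1.35 and 14.0 ± 8.32 in WT and humanized males. Near A1bg, Lratd2 was at 1651 ± 814 and 1481 ± 729. None of the neighbours of these 3 genes with a row had all humanized males above all WT males, as 5.34% of all genes did. Several of them, Hsd3b6 and CN725425 among them, were at 0 in every liver library and could not separate the groups. With so few genes left, nothing is read from this.

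Other peroxisomal genes gave a background for Hao2 and Abcd2. Of 32 listed peroxisomal enzymes and transporters, 30 passed the filter, and 11 were higher and 19 lower in humanized males (median -0.13). None was called, and 1 had an unadjusted p under 0.05. The paralogs Hao1, Abcd3 and Abcd4 differed by -0.27 ± 0.14 (SE), 0.21 ± 0.25 and -0.31 ± 0.24, with limma adjusted p from 0.708 to 0.877. Acot3, an acyl-CoA thioesterase, had the largest difference of the list at 0.79 ± 0.70 (limma adjusted p = 0.836). The thioesterase Acot6 was at -0.67 ± 0.37 (0.719) and the bile acid oxidase Acox2 at -0.48 ± 0.27 (0.730). Among 16 peroxisome biogenesis genes, 8 were higher and 8 lower, none was called and 1 had an unadjusted p under 0.05, and Pex26, a peroxisomal import anchor, differed most at -0.41 ± 0.18 (0.688). Pex11a and Pex7 followed at -0.32 ± 0.20 and 0.31 ± 0.18.

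Female-biased liver genes, from a list that leaves out the 4 genes, were compared with them on the share of the WT female level. Of 41 genes, 29 were higher in humanized than in WT males in the fit and 12 lower, with a median of 0.87 on the log2 scale, beside -0.01 for all genes. None was called by limma, while 15 higher and 2 lower had an unadjusted p under 0.05, which 7.13% of all genes had in males. In 7 genes, 17.1% of the list beside 5.34% of all genes, every humanized male exceeded every WT male. These were Cyp2c39, Cyp2c40, Cyp3a44, Prlr, Slc22a26, Sult3a1 and Vldlr, which include cytochromes P450, the prolactin receptor and a sulfotransferase. For 5 of them, all but Cyp2c39 and Vldlr, humanized males also lay below all WT females, as they did for the 4 genes. Cyp2c39 overlapped between WT males (421 to 6559) and WT females (1095 to 10894), and its humanized males, at 14163 to 31346, lay above both. It was also higher in humanized than in WT females, without overlap (3.60 ± 1.07 SE, limma adjusted p = 0.786). Over the list, the median level was 5.87% of the WT female mean in WT males and 15.7% in humanized males.

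The largest differences of that list were those of Cyp2b9 at 6.66 ± 2.97 (SE; limma adjusted p = 0.694), Cyp2b13 at 4.18 ± 2.47 (0.742), Cyp3a44 at 4.04 ± 1.09 (0.547) and Hamp2, a hepcidin gene, at 3.86 ± 1.38 (0.640). Cyp3a44, the first of the 119 ordered genes, had 4.92, 3.64 and 11.6 in WT males and 781, 174 and 30.1 in humanized males. Its humanized male replicate 1 was the highest, as for the 4 genes, and this was so for 20 of the 41 listed genes, beside 31.3% of all 15180 genes. The median difference of the list in males was 0.65 without that library. In females, the list had 20 genes higher and 21 lower in the humanized genotype, with a median of -0.03. Cyp2b9 and Cyp2b13 were lower there, at -6.66 ± 2.97 (SE; limma adjusted p = 0.786) and -6.55 ± 2.47 (0.786). Without overlap, 4 of the list were higher (9.76%) and 5 lower (12.2%), beside 1116 and 1019 of all 15180 genes. None was called by limma, while 2 higher and 4 lower had an unadjusted p under 0.05, beside 859 of all genes.

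**Figure D3:**
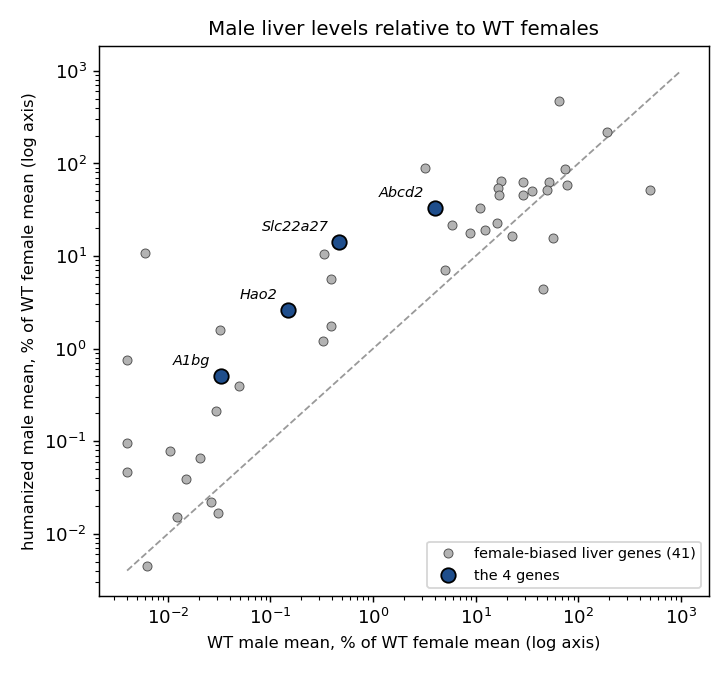
Mean liver signal of WT males (x axis) and humanized males (y axis), each as a percentage of the WT female mean on log axes, for the 4 genes in blue and the 41 listed female-biased genes in grey. The dashed line marks equal levels, 33 of the 41 grey points lie above it, and values under 0.004% are drawn at 0.004%, which applies to 3 genes in WT males.

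Male-biased liver genes were mostly lower in the same humanized males. Of 32 listed, 28 were lower in humanized males and 4 higher (median -1.15), and 1, Moxd1, a monooxygenase-like gene, was called lower (-10.85 ± 1.00 SE, limma adjusted p = 0.00246), as were 3 of all 15180 genes, 0.0198%. In 6 of the list, 18.8% beside 4.67% of all genes, every humanized male lay below every WT male. An unadjusted p under 0.05 was reached by 11, all lower, beside 7.13% of all genes in either direction. Serpina1e, Cyp4a12b and Tff3 had differences of -4.83 ± 2.52, -4.03 ± 0.89 and -3.10 ± 1.07, and none of the 3 was called.

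Regulators of the growth hormone and STAT5 pathway were split, with 15 of 30 higher and 15 lower in humanized males (median 0.00). None was called by limma, while 7 higher and 1 lower had an unadjusted p under 0.05, which 7.13% of all genes had in males. In 6 of the 30, 20% beside 5.34% of all genes, every humanized male exceeded every WT male. In 1, 3.33% beside 4.67% of all genes, every humanized male lay below every WT male. Cux2, a regulator expressed in female liver, had 19.8, 19.4 and 77.2 in WT males and 1367, 295 and 32.6 in humanized males, so the groups overlapped (2.61 ± 1.03 SE, limma adjusted p = 0.677). Cish, a target and inhibitor of STAT5 signalling, was at 364 ± 124 in WT males and 1140.3 ± 609 in humanized males, without overlap (1.59 ± 0.43, 0.547). Lepr, the leptin receptor, and Tox, a nuclear factor, differed by -1.62 ± 0.94 and 1.56 ± 0.66.

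The 4 genes followed each other closely over the 12 liver libraries. Pearson's r on the log2(signal + 1) scale ran from 0.875 between Abcd2 and A1bg to 0.984 between Slc22a27 and Abcd2. These values are descriptions, because the groups are shared and the genes were chosen for 1 pattern. Of 15176 other genes, 63 correlated above 0.9 with Slc22a27, 99 with Hao2, 63 with Abcd2 and 74 with A1bg.

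The gene most like Slc22a27 was Rtn4, an endoplasmic reticulum shaping protein (r = 0.979), followed by Slc22a29, the glucuronosyltransferase Ugt1a5, Amotl1 and Tead1. For Hao2 it was Arrdc4 (r = 0.983), followed by the vitamin B12 carrier Tcn2, Slc22a26, Eci3 and Cyp2a22. For Abcd2 it was Ugt1a5 (r = 0.978), followed by the fatty aldehyde dehydrogenase Aldh3a2, Atp6v0d2, Rtn4 and Il16. For A1bg it was Eci3, an enoyl-CoA isomerase gene (r = 0.980), followed by Plppr1, the interleukin 2 receptor subunit Il2rb, Cyp2c69 and Rsph4a. Eci3 was listed at 0 in all WT males, at a mean of 8.53 in humanized males and at 362 in WT females.

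Above 0.9 with all 4 genes were 16 genes, among them Cux2, Trim24, Prlr and Cyp3a44, and also the T cell genes Cd3g, Lck, Prkcq and Il2rb. The summed T cell markers, 5 genes, had the same order of male and WT female groups as the 4 genes. Their summed signal was 74.2 to 96.5 in WT males, 136 to 179 in humanized males, 222 to 291 in WT females and 185 to 337 in humanized females. Of the 5, 4 were higher in humanized males (median 1.03), 3 of them without overlap, beside 5.34% of all genes. None was called by limma, and 4 had an unadjusted p under 0.05, which 7.13% of all genes had in males. The 4 B cell markers were all higher in humanized males (median 1.05), and 4 of the 5 Kupffer cell and 4 of the 5 endothelial markers were. Of 5 markers each, 4 of hepatic stellate cells, 1 of cholangiocytes and 2 of neutrophils were higher. Of the 8 hepatocyte markers 2 were higher and 6 lower (median -0.25). The part of these cell types in the results was not tested. In bulk tissue, more or fewer cells of a type cannot be told apart from more or less RNA per cell.

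Marker genes of some other tissues were low in the liver libraries. The 8 kidney tubule markers summed to at most 28.6 in any liver library, the 6 of exocrine pancreas to at most 3.76 and the 5 of epididymis to at most 10.8. The 5 ovary markers summed to at most 23.4 in males and reached 104 in humanized female replicate 1. The 6 adipocyte markers summed to between 363 and 1391, mostly through Cidec and Fabp4, while the highest signal of Adipoq, Plin1, Lep and Retn in any library was 13.6. The part of these tissues in the results was not tested.

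**Figure D4:**
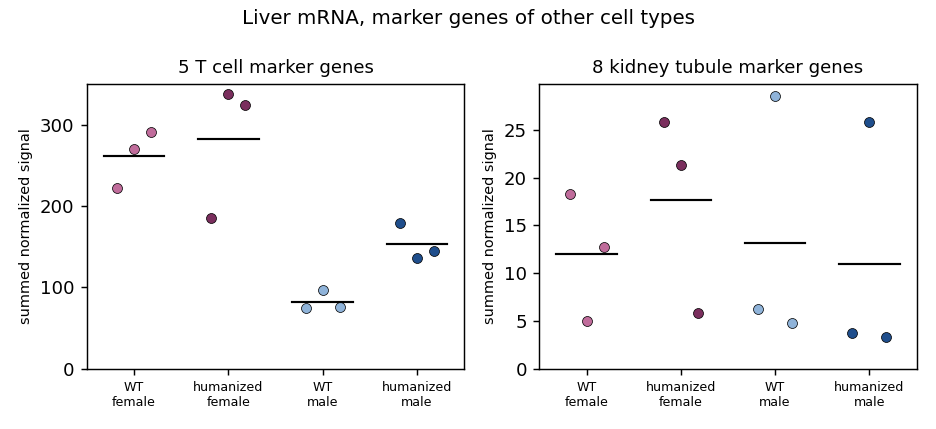
Summed normalized liver signal of 5 T cell and 8 kidney tubule marker genes, with 1 point per library and a line at the group's mean. The T cell sum runs from 74.2 to 96.5 in WT males and from 136 to 179 in humanized males, and the kidney sum stays at or under 28.6 in every library.

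Gonadal adipose tissue, which the choice of genes did not use, gave a test of genotype and sex for Abcd2, in 3 libraries per group and 2 of WT males. The tables of the tissues were normalized separately, so levels are not set across them. Abcd2 was high in all 11 libraries, with 45884, 53772 and 42667 in WT females and 44390.3, 43924 and 46446 in humanized females. WT males had 44767 and 32065, and humanized males 32112, 46698 and 45681. All 4 groups overlapped. The humanized minus WT difference was 0.11 ± 0.20 (SE; limma adjusted p = 0.905) in males and -0.07 ± 0.18 (0.986) in females, and the male minus female difference was -0.23 ± 0.13 (0.528).

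The other 3 genes had little or no adipose signal in most libraries. Slc22a27 was listed at 0 in 9 of the 11 and at 14.4 and 0.883 in the others, and was too low to be fitted. Hao2 was at 3218 in WT female replicate 6 and at 91.7 in humanized female replicate 6, and between 0 and 9.78 in the other 9. A1bg was highest in humanized female replicate 5, at 74.8, and in WT female replicate 6, at 50.3, and between 0 and 10.9 elsewhere. Hao2 and A1bg passed the filter only through these few libraries.

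The library with the most Hao2 and Slc22a27, WT female replicate 6, also held markers of another organ. Its 8 kidney tubule markers summed to 34905, with Umod at 20948 and Slc34a1 at 4213. In humanized female replicate 6, next highest for Hao2, they summed to 752, and in the other 9 libraries to between 8.74 and 98.3. WT male replicate 5 had a hepatocyte marker sum of 230569, against at most 18667 elsewhere, and its Hao2 and A1bg were at 5.45 and 10.9. The part of kidney or liver RNA in these values was not tested. Since Hao2 and A1bg were near 0 in all males and passed the filter through a few female libraries, the fit could show nothing of genotype or sex for them, and no test of these genes is given. Limma called 0.0172% of 17394 genes in males, 0.0172% in females and 0.42% between the sexes, and Abcd2 was not among them, nor did it have an unadjusted p under 0.05 in any of the 3 comparisons.

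**Figure D5:**
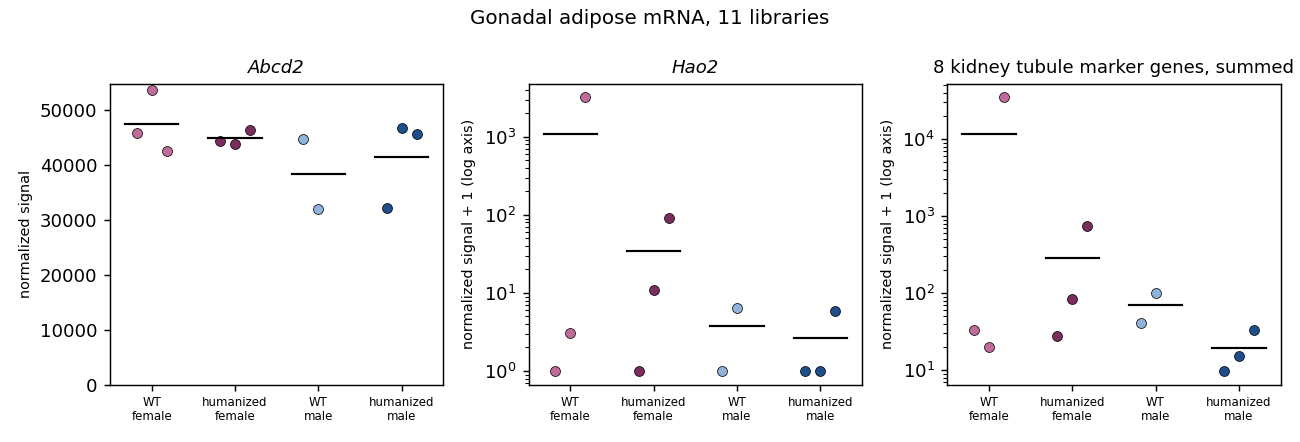
Gonadal adipose signal of Abcd2 (linear axis), of Hao2 and of the 8 kidney tubule markers summed (both signal + 1, log axis), with 1 point per library and a line at the group's mean. Abcd2 lies between 32065 and 53772 in all 11 libraries, and the highest point for Hao2 and for the kidney sum is the same library, WT female replicate 6.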

How the data were processed

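Values in the mRNA tables are the DESeq2-normalized signal deposited by the authors. Besides DESeq2, the submitters' processing notes name mm9, STAR, Salmon and limma without versions or roles. Low values within a library shared no common step, so reads were not recovered and the depth in reads is unknown. The small RNA files of the series were not used here. Liver libraries were prepared with a directional kit after ribosomal depletion or polyA enrichment, and adipose libraries by a cited published protocol, per the labels' protocols.

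Differences came from limma 3.58.1 under R 4.3.3, with the trend option, on the log2(signal + 1) scale for each tissue, over genes of mean signal at least 10, with 1 model over 4 groups and, in liver, a term for the labelled preparation. Calls were made at a Benjamini-Hochberg adjusted p under 0.05 over all genes tested, 15180 in liver and 17394 in adipose tissue. The fit was also run on simulated data with independent normal spread and no group or preparation differences other than shifts in humanized males. Nothing is read from that run here. The preparation term called 0 genes at that threshold and 659 at an unadjusted p under 0.05. Without overlap means that all libraries of 1 group lie above all of another.

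The 4 genes and all gene lists were chosen with earlier results of these data known. Genes named beside them are the 5 most correlated with each, the 4 with the largest male difference in each list, 3 annotated neighbours on each side, the paralogs, and, chosen after their values were seen, those in counts of 7 or fewer and those above 0.9 with all 4. Values of 3 genes taken this way are not reported here, and the list counts include them. Gene order came from RefSeq GRCm38.p6, and 48058 of 48440 gene IDs matched a name. Descriptions and figures used Python with pandas and matplotlib.

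Equal replicate numbers in liver were not taken to mark pairs. Their correlations of deviations ran from -0.09 to 0.08, and from -0.23 to 0.21 with the preparation removed, with both signs in each case. In adipose females they were 0.19, 0.17 and 0.18, over 0.1 in every pair, and in adipose males 0.007 and 0.11. The numbers were taken to pair the adipose female samples from the data. The adipose differences and counts in the results came from the fit without this pairing, and a replicate block was an alternative. Other alternatives were a pseudocount of 10, no filter, rescaling to equal totals, no preparation term, either preparation alone, and leaving out each library. A group left with 1 library is assumed to vary like the others.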

Additional observations from a re-analysis of the deposited data

How the results depend on the processing

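With 3 libraries per group, leaving out single libraries moved the male liver differences. They ran from 4.57 to 6.07 for Slc22a27, 3.54 to 4.87 for Hao2, 2.48 to 4.23 for Abcd2 and 3.50 to 4.29 for A1bg. None changed sign, but the genes were chosen on this contrast and the male groups did not overlap, so nothing is read from that. Slc22a27 was at 4.29 and Hao2 at 3.05 with a pseudocount of 10. With the ribosomal depletion libraries alone Slc22a27 was at 6.51 and Abcd2 at 5.03, and Abcd2 was at 2.15 with the polyA libraries alone. The number of genes called in males, 5, was 8 with a pseudocount of 10, 3 with the replicate block, 46 with ribosomal depletion alone, 2 with polyA alone, and 3 to 15 without single libraries. In liver females the count, 3, was 5 with a pseudocount of 10, 6 and 7 with either preparation alone and 2 to 6 without single libraries. The female differences changed sign to -0.36 (Slc22a27) and -0.37 (Abcd2) with polyA alone, to 0.10 (Hao2) with the replicate block and to -0.021 (Abcd2) without the preparation term. Without single libraries they ran from 0.07 to 0.77 (Slc22a27), -0.56 to 0.49 (Hao2), -0.10 to 0.48 (Abcd2) and -2.11 to -0.35 (A1bg). List medians in males ran from 0.65 to 1.23 (female-biased) and -1.70 to -0.75 (male-biased) without single libraries. In adipose tissue, counts ran from 2 to 8 in males, 2 to 8 in females and 39 to 91 between the sexes without single libraries. The fitted differences of Hao2, Abcd2 and A1bg, of which those of Hao2 and A1bg rest on near-0 values and a few libraries, ran from -1.83 to 0.86, -0.13 to 0.35 and -2.21 to 1.36 in males, from -3.31 to 2.52, -0.15 to 0.021 and -0.96 to 1.88 in females, and from -3.87 to -0.96, -0.35 to -0.11 and -2.60 to -0.81 between the sexes. Without WT female replicate 6 and WT male replicate 5, an alternative chosen after seeing the data, the male differences were 0.86, -0.13 and 1.36, the Hao2 female difference was 2.52, and 5 genes were called in females and 43 between the sexes. The replicate block left Abcd2 uncalled in adipose tissue. The cause of these changes was not tested, beyond the fewer libraries in some.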

Other observations

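A1bg was 7.68-fold lower in humanized female liver replicate 1 than in the lowest of the other 5 female libraries. Of 15180 genes, 4 were at least as far below the other 5 females in that library, where the other females had a signal of at least 10, and the same count was 5 to 37 in the other female libraries. One of the 4 was Hprt, a purine salvage enzyme gene on the X chromosome, at 3.95 in that library and at 808 to 2044 in the other 5. In males Hprt was at 1.98 and 2.89 in WT replicates 1 and 3, at 2.99 and 3.12 in humanized replicates 2 and 3, and at 3922 and 2540 in WT replicate 2 and humanized replicate 1. Low and high Hprt occurred in both genotypes. Humanized male replicate 1, high for Hprt, was also the highest of its group for the 4 genes, whereas WT male replicate 2 was the highest of its group for none of them. The part of Hprt, or of what goes with it, in the results was not tested. Hprt was chosen after its values were seen.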
